A study of Mus musculus with 32 samples.

Results

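DFL16 is the mouse D segment named IGHD1-1, and DFL16 joins are the rearranged heavy chain genes whose D part was assigned to it. Of 908 productive clonotypes used from the deposited series table, 209 had an IGHD1 gene as their first D hit, and all of them were IGHD1-1. A clonotype is a CDR3 sequence with its V, D and J genes in one library. The rule rests on the D call alone and on no measured level. The labels give genomic DNA as the amplified template. They also name poly-A selection and an RNA library kit, a conflict that the sources used here do not settle and that bears on what clone reads and out-of-frame joins stand for. The cells were pro-B cells sorted from bone marrow as B220+ and CD43+ and without IgM or CD25, of untreated mice 8 weeks old, labelled WT or KO for Setd2, the gene of the methyltransferase that trimethylates lysine 36 of histone H3. Each PCR paired JH4 with a primer of 1 VH family: Vh558 (4 WT and 5 KO mice), Vh7183 (5 and 5) or Vhq52 (5 and 4). The 32 libraries came from 11 mice, 5 WT and 6 KO, and 4 mice had a repeat Vh558 library. The labels name neither a Cre line nor a promoter, nor do they say how the allele was removed. The amplicons measure neither Setd2 nor a cell marker, so genotype and cell identity rest on the labels.

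Pro-B cells build a heavy chain gene by joining a D to a JH segment and then a V segment to the DJ unit. The RAG proteins cut beside each segment, the opened hairpins can leave short palindromic P bases, exonucleases trim the ends, and terminal transferase adds bases that no segment encodes. DFL16 lies at the V-facing end of the D cluster and is among the longest mouse D segments. A D segment can be read in any of its frames, and mouse repertoires are known to favour the one rich in tyrosine and serine.

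The segment itself, rebuilt without conflict from the deposited mismatch-free matches, is 23 nucleotides long. It is shown first because all trimming and frame values are counted on it.
DFL16: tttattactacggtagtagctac
When its base 1 opens a codon it encodes FITTVVA, called the hydrophobic frame here. When base 2 does, it encodes LLLR**L, where an asterisk is a stop codon. When base 3 does, it encodes YYYGSSY, the tyrosine-rich frame. The longest and the shortest DFL16 remnants show the span of trimming, with DFL16 bases in capitals and V, J and inserted bases in lower case.
Vh7183 WT mouse 1418, 23 bases kept: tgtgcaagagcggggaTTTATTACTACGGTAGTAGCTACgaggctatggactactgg
Vh558 WT mouse 1536, 4 bases kept: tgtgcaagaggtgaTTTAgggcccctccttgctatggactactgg
The largest clone of each amplicon and genotype, by reads, shows how the segment sits in an expanded join.
Vh558 WT mouse 1485, 4571 reads: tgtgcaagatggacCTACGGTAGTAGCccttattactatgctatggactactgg
Vh558 KO mouse 1423, 2873 reads: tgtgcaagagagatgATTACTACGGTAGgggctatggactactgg
Vh7183 WT mouse 1485, 609 reads: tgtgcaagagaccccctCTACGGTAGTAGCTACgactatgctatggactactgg
Vh7183 KO mouse 1423, 324 reads: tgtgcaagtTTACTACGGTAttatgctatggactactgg
Vhq52 WT mouse 1418, 2012 reads: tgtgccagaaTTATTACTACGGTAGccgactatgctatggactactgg
Vhq52 KO mouse 1500, 1175 reads: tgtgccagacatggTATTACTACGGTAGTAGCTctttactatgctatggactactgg
All of these hold the middle of the segment apart from the shortest remnant.

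DFL16 took 23.02% of all clonotypes and 24.3% of all clone reads (30360 reads), and was found in 28 of 32 libraries. DSP2 (IGHD2), the largest mouse D family, took 46.5% of clonotypes, DST4 (IGHD3) 6.83% and DQ52 (IGHD4), the D closest to JH, 6.28%. No D was assigned to 109 clonotypes. Libraries held 387 to 9276 kept reads but only 5 to 188 clonotypes, so a share in a single library is imprecise. Productive sequences with at least 2 reads were listed, and 19 of the 209 DFL16 entries lay within 2 mismatches of a clonotype of their library with at least 10 times their reads. That count of near-identical entries misses entries with the start of a larger clone of their library and the end of another. An example is the IGHV1-61 join of 7 reads in Vh558 of KO mouse 1423. Also missed are entries as close to each other but less unlike in reads. Examples are the IGHV2-2 joins of 62, 56 and 53 reads in Vhq52 of WT mouse 1418. Such entries were neither counted nor left out, so they stand as separate joins below. Their origin was not tested.

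In Vh7183, the VH5 family close to D, the DFL16 share of clonotypes was lower in KO than in WT mice by the test of this amplicon, and did not pass once adjusted over all genotype tests. WT mice had 50.0%, 30.0%, 31.4%, 38.5% and 33.3%, from 13 to 35 clonotypes each. KO mice had 18.2%, 11.8%, 33.3%, 0% and 0%. Only KO mouse 1464, at 33.3% (5 of 15), reached the WT range. KO mice 1487 and 1500 had 0 of 12 and 0 of 9 clonotypes with DFL16, which allows shares of up to 25.0% and 33.3% by counting error. WT mice averaged 36.6% ± 8.12 (SD, n = 5) against 12.7% ± 13.96 in KO mice (SD, n = 5). KO minus WT was -23.99 points (exact permutation p = 0.0317), with a 95% interval from -40 to -5.91. Adjusted over the 13 genotype tests, p was 0.344. The difference ran from -29.2 to -20.6 points when each mouse was left out, with exact p from 0.00794 to 0.0397. It was smaller in the deposited lists of single samples, which also hold clonotypes of 1 read and were searched for a run of at least 10 DFL16 bases. There it was -13.2 points in the in-frame clonotypes (exact permutation p = 0.135), -4.35 points in all frames (p = 0.190) and 3.89 points in the out-of-frame clonotypes alone (p = 0.516). The in-frame lists thus kept the sign without passing the test, and whether in-frame and out-of-frame joins differ in this respect was not tested.

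In Vh558, the large VH1 family far from D, the shares spread widely within both genotypes. WT mice had 12.7%, 4.35%, 57.1% and 31.3%, and KO mice 14.3%, 12.5%, 28.1%, 20% and 80.0%. The extremes came from small libraries: KO mouse 1534 held 4 DFL16 joins among 5 clonotypes and WT mouse 1485 held 4 among 7. In KO mouse 1534, the joins of 3 and 2 reads were near-identical to that of 56 reads. WT mice averaged 26.4% ± 23.4 (SD, n = 4) and KO mice 30.97% ± 28.1 (SD, n = 5). The 95% interval of KO minus WT reached from -37.1 to 46.2 points (exact permutation p = 0.794). The sign turned without WT mouse 1432 (-2.75 points) or without KO mouse 1534 (-7.66 points). Within the sequencing batch of 3 WT and 3 KO mice the difference was 10.9 points, and within that of 2 and 2 mice 0.0776 points. The other batch had only 1 WT library and gave no value.

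In Vhq52, the VH2 family, 3 of 4 KO mice stood close together at 30.8%, 35.7% and 36.4%. KO mouse 1421 had 0 of 7 clonotypes. WT mice had 46.7%, 33.3%, 10.7%, 10% and 16%, so the groups overlapped. WT mice averaged 23.3% ± 16.1 (SD, n = 5), and 25.7% ± 17.3 was the KO average (SD, n = 4). KO minus WT had an interval from -24.6 to 25.7 points (exact permutation p = 0.817). The sign of this difference turned without any 1 of mice 1484, 1485, 1487 and 1500, to between -1.18 and -0.788 points. With every amplicon centred and averaged per mouse, KO minus WT came to -0.721 points (exact permutation p = 0.976, 95% interval -20.8 to 25.6). It was -10.3 points without KO mouse 1534 (exact p = 0.0794), and its sign turned without any 1 of 6 other mice. For the share of reads it came to -9.40 points (exact permutation p = 0.297, interval -28.1 to 6.60). It was -0.679 without WT mouse 1485 and turned to 3.80 over reads with a D hit. Whether the genotype difference itself differed between amplicons was tested by permuting genotype over mice. The Vh7183 difference was -26.4 points from that of Vhq52 (exact permutation p = 0.0931) and 28.6 points below that of Vh558 (p = 0.156), both with an adjusted p of 0.234 over 3 tests. The lower Vh7183 share was not shown to be particular to that amplicon.

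**Figure D1:**
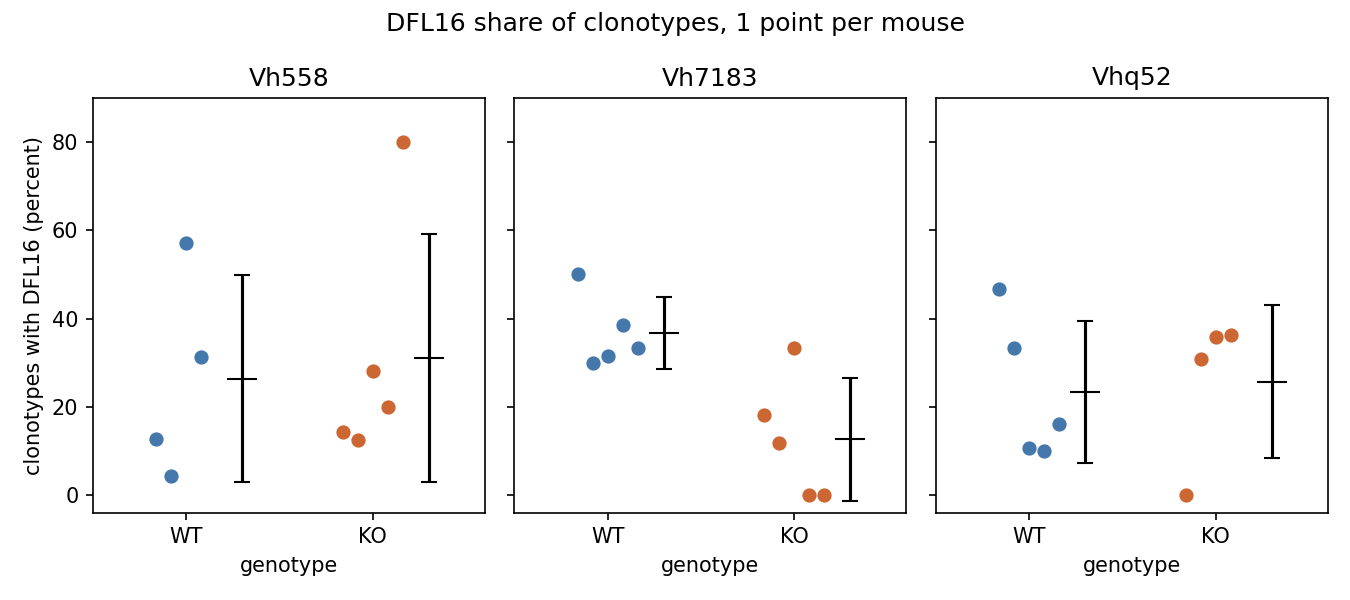
Percentage of clonotypes with DFL16 (y axis) in WT and KO mice (x axis) in each amplicon. Points are mice, and the bar beside them is the mean with its SD. In Vh7183 the 5 WT mice sit between 30.0% and 50.0% and 4 of 5 KO mice below them, while the groups overlap in the other amplicons.

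With genotypes pooled, the DFL16 shares of the amplicons did not pass a test of their difference. Within WT mice Vh7183 had the highest mean and within KO mice the lowest, and pooling averages these orders. Over all mice the mean was 28.9% ± 24.6 in Vh558 (SD, n = 9), 24.7% ± 16.6 in Vh7183 (SD, n = 10) and 24.4% ± 15.6 in Vhq52 (SD, n = 9). The largest of the 3 differences, Vh558 minus Vhq52, was 4.54 points (exact permutation p = 0.657). Paired within mice that hold both amplicons (the replicate block), it was -0.743 points in 7 mice (exact sign-flip permutation p = 0.891). Vh558 minus Vh7183 was 4.28 points unpaired and -4.34 points paired in 8 mice (exact permutation p = 0.539). The spread between mice was larger than any of these differences. Each amplicon had sequencing batches of its own, so amplicon and batch cannot be told apart.

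Inside the joins called as DFL16, the segment was trimmed from both ends and mostly kept its middle. After repeat libraries were pooled, 206 distinct joins remained, and 200 of them held bases of the segment in its own orientation. The other 6 entries matched 5 to 7 bases of its reverse complement, since the D reference used for the alignment carries a mirrored copy on either side of each segment. They count as members but have no trimming or frame value. The 200 joins kept 4 to 23 bases with a median of 14 and a mean of 13.7. There were 19 joins with at least 20 bases and 38 with fewer than 10, and 16 joins differed from the segment inside the match. A remnant of under 10 bases is weak support for the D call, as runs of 8 DFL16 bases occurred in 80 of the 699 clonotypes with another D or none, and runs of 10 bases in 10 of them.

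Bases 12 and 13 of the segment were kept in 95.5% of joins, base 1 in 4.50% and base 23 in 16%. An unbroken remnant of at least 12 bases must hold base 12, and a join that lost the middle may get another D call or none. The high value at the middle thus follows in part from remnant length and from the D call. The median loss was 4 bases at either end, with means of 4.71 at the 5′ end and 4.64 at the 3′ end. Losses of exactly 3 bases were the most frequent at both ends, in 42 joins at the 5′ end and 44 at the 3′ end. The ends differed in how often they stayed whole: 9 joins kept the full 5′ end and 32 the full 3′ end. P bases followed a whole end in 6 joins at the 5′ side and in 24 at the 3′ side. Part of the 3′ trimming depends on how shared bases are assigned, because DFL16 ends in tac and JH sequences can continue with the same letters. With the match extended as far as the CDR3 letters allow, the mean 3′ loss was 4.22 bases and 42 joins kept the whole 3′ end.

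**Figure D2:**
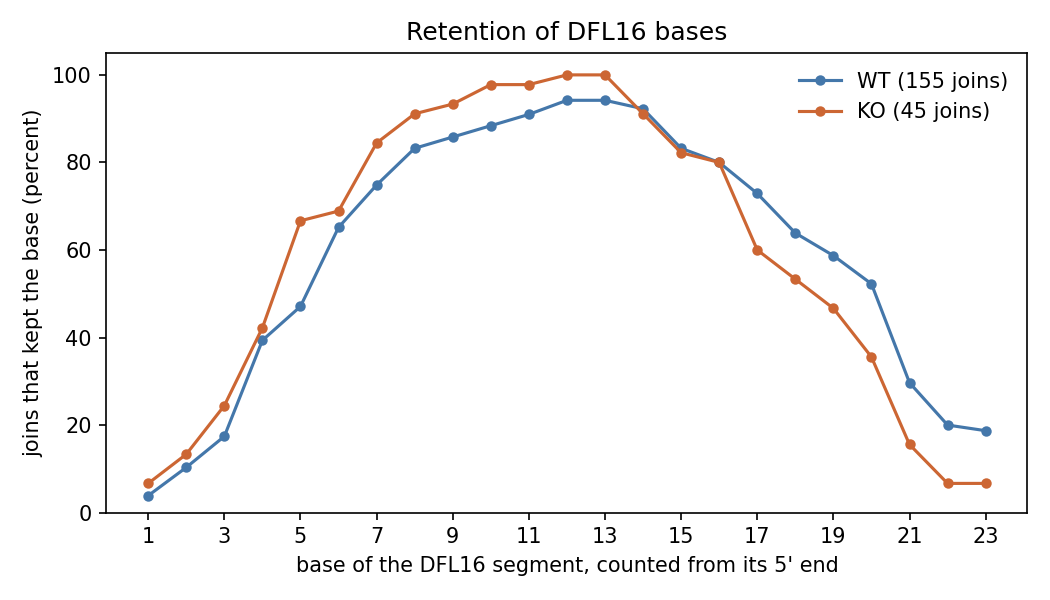
Percentage of joins that kept each base of DFL16 (y axis) against the position of the base from the 5′ end (x axis), for 155 WT and 45 KO joins summed over mice. Both lines rise to over 90% at bases 12 and 13 and fall toward the ends, and joins of a mouse are not replicates.

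Between genotypes, the retained length and the trimming of DFL16 did not pass the test. In Vh558, WT mice 1418, 1485 and 1536 kept means of 10.6, 13.25 and 14.2 bases, and KO mice 1423, 1464 and 1534 kept 13.3, 12.1 and 15. In Vhq52, the 4 WT mice with at least 3 DFL16 joins kept 11.25 to 14 bases and the 3 KO mice 14.5 to 15.25. These groups did not overlap under that minimum, but the only Vhq52 DFL16 join of WT mouse 1485, left out by it, kept 15 bases. KO mice 1487 and 1500 and WT mouse 1418 also held the same join with 15 bases kept. In Vh7183, where only KO mouse 1464 had at least 3 such joins, it kept 15 bases, within the WT range of 13 to 18.8. Centred per amplicon and averaged per mouse, the difference was 1.32 bases more in 5 KO than in 5 WT mice (95% interval -0.125 to 2.94, exact permutation p = 0.0794). The 5′ loss was smaller in KO mice by 1.23 bases (KO minus WT, interval -2.49 to 0.125, exact permutation p = 0.0635, adjusted p = 0.344). It passed 0.05 when mice with a single DFL16 join entered (-1.48 bases, exact p = 0.0152) and without WT mouse 1484 (-1.63 bases, p = 0.0159). Retained length passed without KO mouse 1464 (1.66 bases, exact p = 0.0476). The 3′ loss differed by -0.0852 bases (interval -1.89 to 1.51, exact permutation p = 0.905).

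Bases added by terminal transferase and P bases lie between V and D and between D and J. The gaps given here leave out P bases of DFL16, which were counted with the D match. The V-D gap of DFL16 joins averaged 5.18 bases and the D-J gap 2.74. So counted, the V-D gap was empty in 13 joins (6.50%) and the D-J gap in 57 (28.5%), though some of these held a P base of DFL16. In 4 joins both gaps were empty. G and C made up 66.7% of the 1035 V-D bases and 67.3% of the 548 D-J bases, against 34.8% of the segment. G led at the V-D side, with 45.1% of bases, and at the D-J side C and G had 35.4% and 31.9%. Per mouse, KO minus WT was 0.251 bases for the V-D gap (95% interval -1.83 to 2.29, exact permutation p = 0.857) and -0.266 bases for the D-J gap (-1.90 to 1.39, p = 0.706). CDR3 length differed by -0.414 nucleotides (-5.58 to 3.88, exact permutation p = 0.889).

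Summed over all mice, the tyrosine-rich frame was the one most used in the productive joins. Of the 200 joins, 155 from WT and 45 from KO mice, 130 (65.0%) read DFL16 in that frame, 58 (29.0%) in the hydrophobic frame and 12 (6%) in the frame that holds the stop codons. Joins in the stop frame are productive only without the stop codons of the segment. In 11 of the 12 the remnant was 4 to 11 bases long, and 1 join of 19 bases differed from the segment by substitutions and a deletion inside the match. Their median remnant was 9 bases against 14 in the tyrosine-rich and 15 in the hydrophobic frame. The largest KO clone of Vh7183 shown above is a stop-frame join, read as LLR. By group, the hydrophobic frame had more joins in Vh7183 KO (4 against 3) and Vhq52 KO (7 against 6), and as many in Vhq52 WT (10 and 10). In Vhq52 WT, all 7 joins of mouse 1418 were in the hydrophobic frame. Those of Vh7183 KO include a near-identical hydrophobic entry of 15 reads, and those of Vhq52 KO a near-identical entry in either frame. In the CDR3 protein, YGSS, the core of the tyrosine-rich frame, stood in 67 of 200 DFL16 joins and in 1 of 699 clonotypes without DFL16. TTV, from the hydrophobic frame, stood in 40 DFL16 joins and in 3 others. The D call rests on the bases that encode these motifs, so their low counts outside DFL16 are no separate result. The order turned when the 200 joins were weighted by reads, with a join found in both repeat libraries taken at its larger count. The hydrophobic frame then held 47.4% of their reads and the tyrosine-rich frame 44.7%. Without the Vhq52 library of WT mouse 1418 the order turned back, with 42.9% in the hydrophobic and 48.5% in the tyrosine-rich frame. By genotype, WT reads were 32.1% hydrophobic and 66.5% tyrosine-rich, and KO reads 65.7% and 18.4%. The WT sum holds the clone of 4571 reads of mouse 1485, read in the tyrosine-rich frame. These sums over mice were not tested.

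Out-of-frame joins, which encode no heavy chain, were read from the lists of single samples to see the frame use where the protein is not made. There DFL16 was found as a run of at least 10 identical bases, a rule that found 161 of the 203 DFL16 entries of the series table that hold segment bases. Of 209 in-frame joins in the lists, 132 (63.2%, 95% Wilson interval 56.4 to 69.4) were in the tyrosine-rich frame. By genotype it was 111 of 155 WT joins, but 21 of 54 KO joins against 30 in the hydrophobic frame. Of 181 out-of-frame joins, 49 (27.1%, 21.1 to 33.97) stood in that frame relative to V, 67 (37.0%) in the hydrophobic and 65 (35.9%) in the stop frame. In-frame joins with a stop codon, which are kept out of the in-frame class, were in the stop frame in 20 of 23 cases. This definition lowers the stop frame, and so raises the other frames, in the in-frame class alone. Wilson intervals cover counting error only, as PCR reads and clonotypes of a mouse are not independent.

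Per mouse, the tyrosine-rich share averaged 50.3% ± 24.0 of in-frame and 26.5% ± 14.2 of out-of-frame DFL16 joins (SD, n = 10 mice with at least 3 joins of each kind). Amplicons of a mouse were pooled here without centring, and not all mice held the same amplicons. Out of frame, WT mice averaged 42.9% in Vh558 (n = 3), 33.7% in Vh7183 (n = 3) and 13.6% in Vhq52 (n = 5). The part of the amplicon mix in the values below was not tested. The in-frame share was the higher one in 7 of 10 mice, by 23.8 points on average (95% interval 1.61 to 47.4, exact sign-flip permutation p = 0.0391). Leaving out 1 mouse kept this p under 0.05 in 4 of 10 cases. It rose to 0.0625 without WT mouse 1418, 0.0703 without WT mouse 1485 and 0.0781 without mouse 1432, 1464, 1484 or 1536, and the difference ran from 16.96 to 27.7 points (exact permutation tests). Of the 788 out-of-frame sequences in the lists, 570 began with the cysteine codon that opens a CDR3. With only such sequences, a choice made after seeing the data, the difference was 24.6 points (exact permutation p = 0.0313). The difference did not pass once the classes were made alike, also chosen after seeing the data. Without stop-frame joins in either class it was 13.5 points (54.5% against 41.0%, exact permutation p = 0.293), higher in frame in 5 mice and lower in 4. With stop-bearing joins counted as in frame it was 17.7 points (exact permutation p = 0.0879).

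In each WT mouse the tyrosine-rich frame was more frequent in frame than out of frame, though without stop-frame joins mouse 1418 had 63.0% in frame and 63.6% out of frame. Their in-frame shares were 60.7%, 92.3%, 66.7%, 56.25% and 76.6%, against 43.75%, 6.67%, 11.1%, 34.5% and 28.6% out of frame, in mice 1418, 1432, 1484, 1485 and 1536. KO mice 1421, 1423, 1464, 1487 and 1500 had 40%, 20%, 36.8%, 25.0% and 28.6% in frame, and 42.9%, 31.25%, 5.26%, 35.7% and 25.0% out of frame. Every WT mouse stood above these 5 KO mice in frame, while out of frame the groups overlapped. KO mouse 1534 went the other way, with all of its 6 in-frame joins in the tyrosine-rich frame and a single out-of-frame join. KO mice rest on few joins, 5 to 19 in frame and 7 to 20 out of frame apart from mouse 1534.

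This contrast between genotypes was tested after the values were seen. It pools the amplicons of a mouse without centring, and the part of the amplicon mix in it was not tested. The gain from out-of-frame to in-frame joins was 45.6 ± 27.8 points in WT (SD, n = 5) and 2.07 ± 17.6 points in KO mice (SD, n = 5). The difference was -43.5 points (95% interval -77.8 to -9.20, exact permutation p = 0.0238, adjusted p = 0.0714 over 3 tests). It ran from -50.9 to -33.5 points when each mouse was left out (exact p 0.0238 to 0.0476) and had p = 0.0556 with runs of at least 8 bases. Without stop-frame joins in either class it was -49.1 points (exact permutation p = 0.0397), from 38.0 ± 36.3 points in WT and -11.1 ± 23.1 in KO mice (SD, n = 5 each). With stop-bearing joins counted as in frame it was -37.7 points (exact permutation p = 0.0317). The in-frame share alone was 28.8 points lower in 6 KO than in 5 WT mice (KO minus WT -28.8, exact permutation p = 0.0844), and 40.4 points lower without KO mouse 1534 (-40.4, p = 0.00794). The out-of-frame share differed by 3.10 points (-20.9 to 25.0, exact permutation p = 0.770). In the series table, the same share, centred per amplicon, was -14.9 points in KO mice (-48.6 to 20.5, exact permutation p = 0.349), where mouse 1534 enters with 100% of 4 joins. Among those 4, the entries of 3 and 2 reads were near-identical to that of 56 reads. The in-frame share was -7.12 points in KO mice in Vh558 alone, -35.0 in Vh7183 alone and -43.9 in Vhq52 alone, each in 2 to 5 mice a group (exact permutation p = 0.8, 0.0952 and 0.107).

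**Figure D3:**
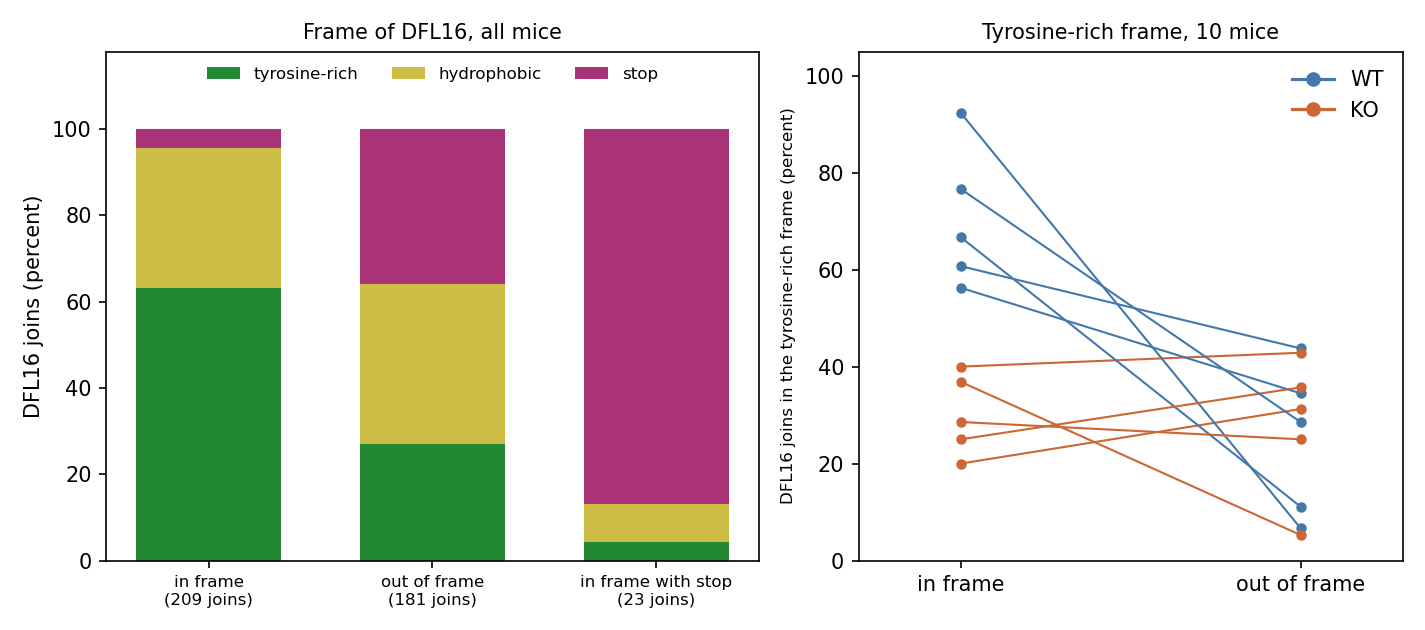
Left, percentage of DFL16 joins (y axis) in each reading frame for in-frame, out-of-frame and stop-bearing in-frame joins of the single lists, summed over mice (x axis). Right, percentage in the tyrosine-rich frame in each mouse with its amplicons pooled, in-frame joined by a line to out-of-frame, WT blue and KO orange. All 5 WT lines fall from left to right and 2 of 5 KO lines do.

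DSP2 segments were the comparison for the DFL16 ends, since both families share mouse, amplicon and library. The DSP2 genes of the table are 17 nucleotides long and end in tac or gac, and the 2 genes with the most clonotypes are shown for contrast with DFL16.
IGHD2-4: tctactatgattacgac
IGHD2-6: cctactatagtaactac
DFL16 lost more bases at its 3′ end than DSP2 in 7 of 8 mice with at least 3 joins of either family in an amplicon. The DFL16 means were 5.40, 2.90, 5.58 and 3.63 bases in WT mice 1418, 1432, 1484 and 1536, and the DSP2 means 3.28, 3.625, 2.73 and 2.92. In KO mice 1423, 1464, 1487 and 1500 DFL16 lost 5.14, 4.77, 4.80 and 4.75 bases and DSP2 1.73, 1.92, 2.33 and 3.50. Only WT mouse 1432 went the other way. The mean difference was 1.87 bases (95% interval 0.702 to 2.91, exact sign-flip permutation p = 0.0234, adjusted p = 0.0781 over 6 tests). It stayed between 1.65 and 2.24 bases, with exact p of 0.0156 to 0.0469, whichever of the 8 mice was left out. With the match extended into V and J, a choice made after seeing the data, it was 1.49 bases (exact permutation p = 0.0156). Summed over mice, 32 of 200 DFL16 joins (16%) and 193 of 384 DSP2 joins (50.3%) kept the whole 3′ end. Trimming is counted in called joins only, and DSP2, with 17 nucleotides, has fewer bases to lose than DFL16, with 23. The part of segment length in the 3′ difference was not tested.

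The D-J gap was smaller in DFL16 joins, by -0.956 bases (2.39 against 3.35 bases, interval -1.74 to -0.0869), and lower in 7 of 8 mice (exact permutation p = 0.0391). This gap leaves out P bases of the D segment. Summed over mice, such bases followed the 3′ end in 24 of 200 DFL16 and 157 of 384 DSP2 joins. A gap with these P bases included was not tested. The CDR3 of DFL16 joins was longer by 2.26 nucleotides (47.1 against 44.9, interval 0.140 to 3.91) in 6 of 8 mice (exact permutation p = 0.0391). Both had an adjusted p of 0.0781. For the gap, p stayed under 0.05 only without KO mouse 1423 (-1.22 bases, exact p = 0.0156), and without any 1 of the other 7 mice it was 0.0625 to 0.0781. For CDR3 length it stayed under 0.05 only without WT mouse 1418 (2.90 nucleotides) or KO mouse 1500 (2.65 nucleotides), and was 0.0625 to 0.0781 otherwise. The 5′ loss differed by -0.302 bases (interval -2.26 to 1.52, exact permutation p = 0.727), with 4 mice on either side. The V-D gap differed by -0.125 bases (-1.81 to 1.41, exact permutation p = 0.891). On the side of DFL16 that faces J the intervals of the difference from DSP2 thus lay off 0, without passing the adjusted test, and on the side that faces V they included 0.

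**Figure D4:**
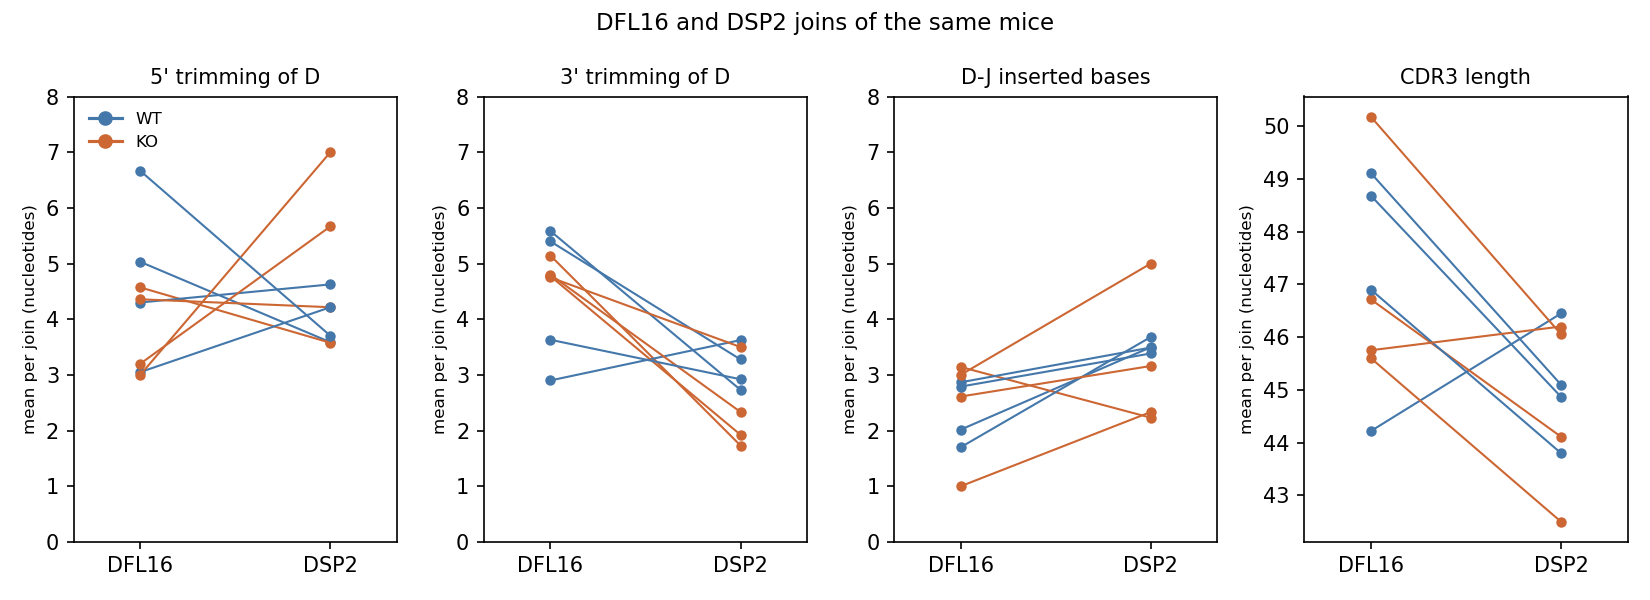
Mean trimming, D-J gap and CDR3 length in nucleotides (y axes) of DFL16 and DSP2 joins (x axes) in the same 8 mice, WT blue and KO orange, with 1 line per mouse. The line for 3′ trimming falls from DFL16 to DSP2 in 7 of 8 mice, and the CDR3 axis does not start at 0.

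JH partners of DFL16 were led by IGHJ4, the JH gene of the PCR primer and the one farthest from D. Of 206 distinct joins, 162 (78.6%) used IGHJ4, 27 (13.1%) IGHJ2, 12 (5.83%) IGHJ3 and 5 (2.43%) IGHJ1. The amplicons, which share no sequencing batch, differed in these sums: IGHJ4 took 101 of 104 WT joins in Vh558, 27 of 37 in Vh7183 and 6 of 20 in Vhq52. In Vhq52, IGHJ2 had the most joins, with 9 of 20 in WT and 7 of 13 in KO mice. Of the 9 WT joins, 6 came from mouse 1418 with like sequences of IGHV2-2, and without that mouse IGHJ2 had 3 of 13, IGHJ3 4 and IGHJ4 5. Without near-identical sequences IGHJ2 and IGHJ4 had 5 of 11 KO joins each. A band of 500 bp was cut from the gel, and the part of that selection in these shares was not tested. DSP2 joins used IGHJ4 in 304 of 403 cases (75.4%), IGHJ3 in 64 (15.9%) and IGHJ2 in 28 (6.95%). Within mice the IGHJ4 share of DFL16 minus that of DSP2 was 3.14 points (95% interval -18.0 to 26.7, exact sign-flip permutation p = 0.797), from -14.3 points in WT mice and 20.6 points in KO mice.

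By genotype, the IGHJ4 share of DFL16 joins was 75%, 98.6% and 100% in the 3 WT mice of Vh558 with at least 3 such joins, and 25.0%, 85.7% and 88.9% in the 3 KO mice. KO mouse 1534, at 25.0% of 4 joins, stood apart. Its joins without IGHJ4 were an IGHJ3 join of 56 reads and near-identical entries of 3 and 2 reads. In Vh7183 the 5 WT mice had 55.6% to 83.3% and the KO mouse measured had 60.0%. In Vhq52 the KO mean was the higher one, with 36.7% ± 32.1 (SD, n = 3) against 26.1% ± 22.99 in WT mice (SD, n = 4). Averaged over amplicons, KO minus WT came to -3.99 points (exact permutation p = 0.857, interval -43.4 to 26.9), and it turned to 7.96 points without KO mouse 1534 (exact p = 0.460) and to 0.147 points without WT mouse 1536 (exact p = 0.992). Among clonotypes of at least 10 reads it turned to 16.98 points (exact permutation p = 0.0476).

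**Figure D5:**
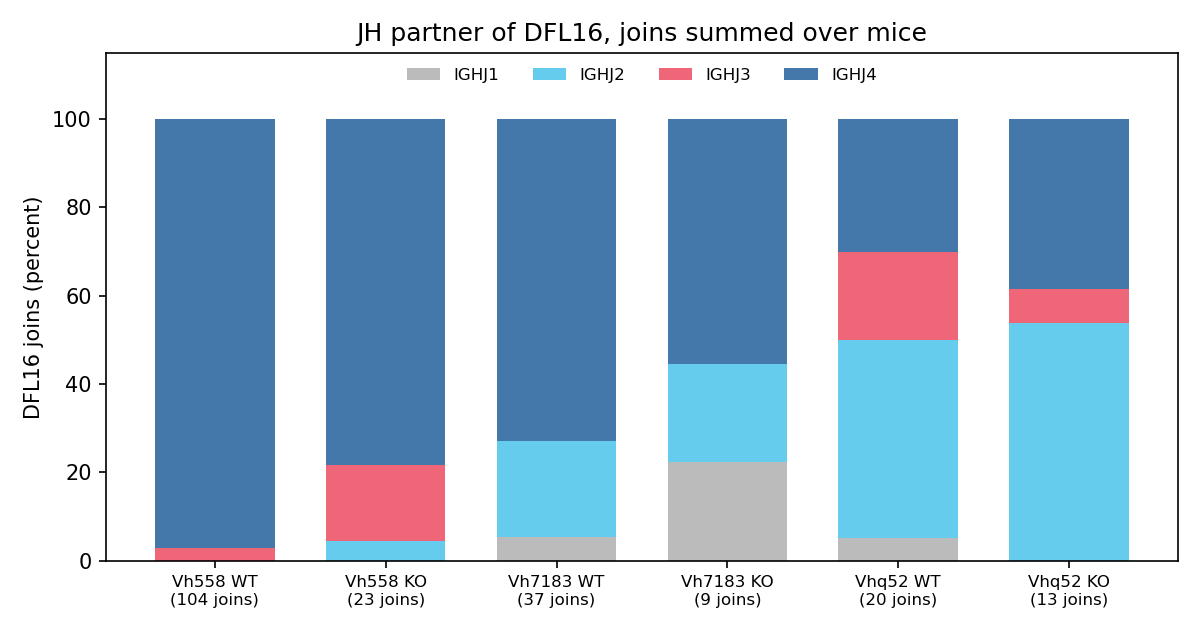
Percentage of DFL16 joins (y axis) with each JH gene in the 6 groups of amplicon and genotype (x axis), joins summed over mice. IGHJ4 makes up nearly the whole of the Vh558 WT bar, and IGHJ2 leads in both Vhq52 bars, in WT through the 6 joins of mouse 1418.

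The V partners were of the primer's family in Vh558 and Vhq52, and in Vh7183 in 42 of 46 joins. The other 4 used IGHV7-3 (2 joins), IGHV6-3 and IGHV6-6, which are named after their values were seen. In Vh558, 127 distinct DFL16 joins used 19 V genes, led by IGHV1-26 with 16 joins in 4 mice and IGHV1-19 with 15 in 3 mice. IGHV1-72 and IGHV1-55 had 10 joins each, IGHV1-75 had 9 and IGHV1-74 had 8. DFL16 made up 15 of the 37 joins of IGHV1-19 (40.5%, 95% Wilson interval 26.3 to 56.5) and 10 of the 65 joins of IGHV1-55 (15.4%, 8.58 to 26.1). In Vh7183, 46 joins used 11 V genes, led by IGHV5-17 with 11 joins in 5 mice, IGHV5-12 with 7, and IGHV5-4 and IGHV5-9-1 with 6 each. DFL16 was in 6 of 9 joins of IGHV5-9-1 and in 6 of 30 of IGHV5-4. The 6 of IGHV5-9-1, all from WT mice, include a sequence held by mice 1432 and 1484 and a near-identical entry of 6 reads. They also include an entry of 2 reads with the start of a larger clone and the end of another. In Vhq52, 33 joins used 6 V genes, and IGHV2-2, the V gene of this amplicon with the most DFL16 joins, had 17 of them in 6 mice, or 26.2% of its own 65 joins. IGHV2-9-1 had 7 joins in 6 mice and IGHV2-3 had 4 in 3 mice. These shares are sums over mice of unequal size and were not tested.

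Clone sizes of DFL16 joins ran from 2 to 4571 reads with a median of 13. Of the 209 entries, 92 had under 10 reads, 23 had the minimum of 2, and 21 held over 10% of the reads of their library. The median size was 10 reads in Vh558 WT and 13 in Vh558 KO, 18 and 19 in Vh7183, and 54.5 and 33 in Vhq52. The largest of all joined IGHV1-72 to IGHJ4 in Vh558 of WT mouse 1485 and held 70.5% of that library, whose DFL16 joins took 90.2% of reads. The same mouse had the 2 largest DFL16 shares of Vh7183 reads, joins of IGHV5-4 (42.4%) and of IGHV5-17 (32.5%). In KO mice the largest shares were 31.0% for IGHV1-61 in Vh558 of mouse 1423, 28.3% for IGHV5-17 in Vh7183 of mouse 1464 and 27.7% for IGHV2-2 in Vhq52 of mouse 1487. The 3 KO clones were all read in the hydrophobic frame. The read counts are of PCR products without molecular identifiers, so many cells of a clone and a well amplified template cannot be told apart.

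A few DFL16 joins recurred between mice with the same nucleotides. They are shown because each of them counts once in every mouse that holds it.
Vhq52 WT mouse 1418, KO mouse 1487 and KO mouse 1500: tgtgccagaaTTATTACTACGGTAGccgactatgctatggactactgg
Vhq52 WT mouse 1432 and KO mouse 1464, IGHV2-2 to IGHJ2: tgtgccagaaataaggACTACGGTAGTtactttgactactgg
Vhq52 WT mouse 1432 and KO mouse 1464, IGHV2-9-1 to IGHJ3: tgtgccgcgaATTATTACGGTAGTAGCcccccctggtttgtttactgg
Vh7183 WT mice 1432 and 1484: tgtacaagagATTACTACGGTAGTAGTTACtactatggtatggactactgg
The first, an IGHV2-9-1 to IGHJ4 join with no base between V and D and 3 between D and J, held 2012, 786 and 336 reads in its 3 mice, or 26.5%, 26.3% and 7.60% of their libraries. The second had 364 reads in the WT and 5 in the KO mouse, and the third 146 and 6 reads. The fourth had 98 and 78 reads. Another shared join, of IGHV5-6 in the same 2 WT mice, held no DFL16 base in the orientation of the segment. Without sequences held by several mice, the KO minus WT share was -25.8 points in Vh7183 (exact permutation p = 0.0159) and turned to -10.95 points in Vhq52 (p = 0.778). The origin of the recurrence was not tested.

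Repeat libraries of the same mouse overlapped little. In Vh558, the libraries of WT mouse 1536 held 18 and 54 DFL16 sequences with 1 in common, and those of WT mouse 1418 held 5 and 24 with 1 in common. KO mouse 1423 had 2 and 6 with 1 in common, and KO mouse 1421 had 0 and 2. Most DFL16 sequences of a repeat library were thus absent from the other library of the same mouse.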

How the data were processed

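Per the labels, VH to JH4 products of genomic DNA were sequenced, though the extract protocol names poly-A selection and an RNA library kit. The authors deposited a table of productive clonotypes over the series (counts of reads per clonotype of at least 2 reads, with no normalization) and clone lists of single samples (counts from 1 read, all frames). The series title names MiXCR, and version, settings and genome build were not given in the sources used here. The series table also holds deposited positions within the CDR3, other values in nucleotides, from which retained length, trimming, gaps and frame were computed.

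Of 930 entries, 22 in 2 libraries were not used: a second run of KO mouse 1534, and one from KO mouse 1500 without a sample of its own. The single lists carry human D names, so DFL16 was sought in them by sequence.

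The mouse was the replicate. Shares of repeat libraries were averaged, and joins of a mouse were pooled, with at least 3 per mouse and amplicon. The frame tests on the single lists also pooled amplicons, with at least 3 joins of a kind per mouse. Group differences are KO minus WT. Tests were two-sided exact permutations over mice, or exact sign flips within mice, with intervals by inversion, and 100000 resamples where a group had 10 mice or more. Benjamini-Hochberg adjustment ran over 13 genotype tests, 6 of DFL16 against DSP2 and 3 of amplicon pairs. The tests were checked on simulated data. Alternatives included read minimums, other join minimums, the denominator, shared and near-identical sequences left out, and each mouse left out. A planned rule on hits of other D families was not run, as the table lists 1 D hit per clonotype. Mouse numbers name the same animal in each amplicon.

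Named were IGHD1-1, the D families, all JH genes, the 6 leading V genes per amplicon, clones over 10% of reads and shared sequences; other items were chosen after their values were seen, and not every such clone is printed. Members and lists were chosen with earlier results of these data known. Scripts ran in Python 3.11.15 with scipy 1.17.1, numpy 2.4.6, matplotlib 3.10.9 and pandas 2.3.3.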

Additional observations from a re-analysis of the deposited data

Results flagged for a closer look

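In Vh558, KO mouse 1534 had DFL16 in 80.0% of its clonotypes (4 of 5), apart from the other 4 KO mice at 12.5% to 28.1%. Among its 4 DFL16 entries, those of 3 and 2 reads were near-identical to that of 56 reads. In Vhq52, KO mouse 1421 had 0.0% (0 of 7), apart from the other 3 KO mice at 30.8% to 36.4%. Of 28 groups examined for a sample that stands apart, about 1 in 20 would be picked by chance.

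The gain of the tyrosine-rich frame from out-of-frame to in-frame DFL16 joins differed between genotypes, by -43.5 points in KO against WT mice (exact permutation p = 0.0238, adjusted p = 0.0714). Without stop-frame joins in either class it was -49.1 points (exact permutation p = 0.0397). This test was chosen after the values of the mice were seen, and it pooled the amplicons of a mouse.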

How the results depend on the processing

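Differences are KO minus WT unless 2 families or amplicons are named. Alternatives based on calls of at least 10 retained bases, near-identical sequences, the single lists (for shares and for frames by genotype), the extended D match, the first codon of the CDR3, stop-frame joins, and counts without 1 library were chosen after seeing the data. The cause of the changes below was not tested.

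With at least 10 reads per clonotype the share was -0.889 points in Vh558, -7.63 in Vhq52 and -2.07 for Vh7183 minus Vhq52. The 3′ loss was then 0.846 bases, the D-J gap 0.112 bases, CDR3 length 2.56 nucleotides and the IGHJ4 share 16.98 points (exact permutation p = 0.0476), and DFL16 minus DSP2 for the D-J gap was -0.836 bases (p = 0.172). Among clonotypes with a D hit, the share over all amplicons was 1.12 points, that of reads 3.80 and Vh7183 minus Vhq52 -1.08. Without sequences shared between mice, Vhq52 was -10.95 points. With at least 1 join per mouse, the 5′ loss was -1.48 bases (exact permutation p = 0.0152) and the 3′ loss 1.15. With at least 5, the 3′ loss was 0.537 bases and CDR3 length 2.18 nucleotides. In IGHJ4 joins only, the 3′ loss was 0.730 bases, the D-J gap 0.281 and CDR3 length 1.86 nucleotides.

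With calls of at least 10 bases, the share over all amplicons was 1.76 points, the 5′ loss -1.54 bases (exact permutation p = 0.0476), the 3′ loss 0.432 and the D-J gap 0.0118. Without near-identical sequences, the 5′ loss was -1.28 bases (exact permutation p = 0.0476), the 3′ loss 0.762, the D-J gap 0.134, CDR3 length 1.37 nucleotides and the IGHJ4 share 3.44 points. In the single lists, all frames gave 0.106 points over all amplicons, and by amplicon -4.71 (Vh558), -4.35 (Vh7183) and -0.504 (Vhq52). In-frame clonotypes gave -13.2 in Vh7183. Out-of-frame ones gave -7.90, 3.89 and -2.08 in Vh558, Vh7183 and Vhq52.

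DFL16 minus DSP2 in WT mice alone was 0.729 bases for the 5′ loss, 1.24 for the 3′ loss, 0.735 and -1.17 for the V-D and D-J gaps, 2.17 nucleotides for CDR3 length and -14.3 points for IGHJ4. In KO mice alone, the 3′ loss was 2.49 bases, the D-J gap -0.742 and CDR3 length 2.34 nucleotides, and, opposite in sign to WT, the 5′ loss was -1.33 bases, the V-D gap -0.985 and IGHJ4 20.6 points. With 4 mice a genotype these exact tests cannot reach 0.05. With at least 1 join of either family the V-D gap was 0.0934 bases. Paired within mice (the replicate block), Vh558 minus Vh7183 was -4.34 points and Vh558 minus Vhq52 -0.743, and no call changed.

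Leaving out each mouse in turn gave the ranges that follow. The share ran from -10.3 to 2.84 points over all amplicons, and by amplicon from -7.66 to 14.8 (Vh558), -29.2 to -20.6 (Vh7183) and -1.18 to 10.9 (Vhq52), and that of reads from -12.0 to -0.679. Retained length ran from 1.10 to 1.66 bases, the 5′ loss from -1.63 to -0.990, the 3′ loss from -0.391 to 0.378, the V-D gap from -0.278 to 0.828, the D-J gap from -0.561 to 0.115 and CDR3 length from -1.33 to 1.32 nucleotides. The tyrosine-rich share ran from -24.9 to -8.46 points, the IGHJ4 share from -11.8 to 7.96, and the in-frame minus out-of-frame share from 16.96 to 27.7. DFL16 minus DSP2 ran from 1.65 to 2.24 bases for the 3′ loss, -0.768 to 0.226 for the 5′ loss, -0.415 to 0.428 for the V-D gap, -1.22 to -0.807 for the D-J gap, 1.99 to 2.90 nucleotides for CDR3 length and -4.99 to 7.20 points for IGHJ4. Vh558 minus Vh7183 ran from -2.10 to 9.13 points, Vh558 minus Vhq52 from -1.85 to 9.35 and Vh7183 minus Vhq52 from -3.08 to 4.49. Libraries of 5 to 188 clonotypes limit all shares. In-frame minus out-of-frame, the tyrosine-rich share was 13.5 points without stop-frame joins (exact permutation p = 0.293) and 17.7 with stop-bearing joins included (p = 0.0879). For the post-hoc frame contrast, in-frame minus out-of-frame, runs of 8 bases gave -30.3 points and Vhq52 alone -46.5.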
